A study of Mus musculus with 4 samples.

Results

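The DNA replication genes described here are 45 mouse genes that act at replication origins, at the replication fork or in the supply of DNA building blocks. They were taken by gene symbol from a fixed list, which was chosen with earlier results of these data known. All 45 of 45 had a probe set among the 23185 named genes of the arrays. The study measured RNA of 4 cell populations on Affymetrix arrays, with a single array (1) for each. The first population, iPS, is induced pluripotent stem cells, reprogrammed from club cells, which are secretory cells of the airways. The second, Day0, is club cells of adult mouse lung as isolated, without culture. The third, 3w+Dox, is club cells kept for 3 weeks with doxycycline in the medium, a drug used to turn on inducible transgenes, and the labels call it Club-iPL. The fourth, called withdrawn cells here, is the 3w+Dox culture after 2 further weeks in medium without the drug. The labels name neither the mouse strain, the transgenes or the promoter that drives them, nor a sort or gate for the isolate. A culture that never received the drug was not analysed here, and effects of culture time and of doxycycline cannot be told apart.

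DNA replication begins when the origin recognition complex, together with Cdc6 and Cdt1, loads the MCM helicase ring on DNA in G1 phase, a step called licensing. In S phase the loaded ring is activated by Cdc45 and the GINS complex, primase and polymerase alpha lay down primers, and polymerases delta and epsilon extend them with the sliding clamp PCNA. Many of these genes are transcribed as cells pass from G1 into S phase under E2F transcription factors, which RB family proteins restrain. Pluripotent mouse stem cells divide rapidly with a short G1 phase, while most airway epithelial cells of an undisturbed adult lung do not divide.

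The values are log2 signals from RMA, and a difference of 1 is a 2-fold difference. With 1 array per population there is no spread between replicates, so p-values are not given, and precision is limited by the number of arrays. In a comparison, genes count as higher or lower if their signals differ by 2-fold or more while the brighter signal reaches 6.67 (the median of the whole table). Counts at 4-fold stand beside those at 2-fold. Of the 45 genes, 35 lay at or above 6.67 on all 4 arrays and 0 lay below it on all 4. The 10 genes that lay below it on at least 1 array were Orc1, Cdc6, Gmnn, Cdc45, Gins1, Gins3, Mcm10, Prim1, Pole and Pole2, and the size of a fold against such a dim signal is not exact. In RNA of a whole population, fewer cells of a type and less RNA per cell cannot be told apart.

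The labelled cell types were set against marker lists. All of the 10 club cell markers lay at or above 6.67 at Day0 (10.21 to 13.83), and so did 8 of 8 alveolar type 2 and 10 of 10 ciliated cell markers. Club cell markers reached it for 7 of 10 genes at 3w+Dox, 10 of 10 in withdrawn cells and 2 of 10 in iPS cells. Of 8 pluripotency markers, 7 lay at or above 6.67 in iPS cells and 0 on each of the other arrays. Nanog and Utf1 read 12.87 and 12.93 in iPS cells, while Dppa5a read 5.30 there and was the member below the line. Fibroblast markers lay at or above 6.67 for 10 of 10 genes in iPS cells, 2 of 10 at Day0, 10 of 10 at 3w+Dox and 10 of 10 in withdrawn cells, with medians of 9.41, 5.98, 11.94 and 11.91 and summed log2 signals of 92.2, 59.8, 117 and 118. Leukocyte markers did so for 6, 3, 8 and 8 of 9 genes on the same arrays, with summed log2 signals of 62.1, 57.8, 84.7 and 86.5.

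Promoter sequence was read for the genes from RefSeq (build GRCm38.p6), because genes that differ together may share letters near their starts. The window runs from 250 bases before to 50 bases after the gene's start, and 37 of the 45 genes had one. E2F factors are known to bind sites of the form TTTCCCGC, TTTGGCGC, TTTCGCGC or TTTGCCGC, and these 4 words of 8 letters were searched on both strands. At least 1 of them was found in 15 of the 37 genes (40.5%), and in 704 of 27025 genes (2.60%) over all RefSeq promoters of the same length. Among genes on the arrays the share was 569 of 17452 (3.26%). The words were chosen with the members' differences known, and a match is a description of the letters and not of binding.

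The lines below show 10 of these genes, each with 1 match in capitals and up to 11 bases on either side, read 5′ to 3′ on the strand that carries the word. The first 4 are genes of the MCM ring, the next 4 are genes of origin recognition, loading and polymerase epsilon with large differences in iPS cells, and the last 2, Orc3 and Pold3, hold a match although they differed less than 2-fold between iPS cells and Day0.
Mcm3 (chr1:20820275-20820304, plus strand): acttcccaagtTTTCCCGCcacggaagttt
Mcm5 (chr8:75109349-75109378, minus strand): aggctggacgtTTTGGCGCgaaagttcttg
Mcm6 (chr1:128359734-128359763, minus strand): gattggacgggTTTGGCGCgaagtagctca
Mcm7 (chr5:138171849-138171878, minus strand): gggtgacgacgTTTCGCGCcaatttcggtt
Orc1 (chr4:108579416-108579445, minus strand): aggagaaaactTTTCGCGCcactaaccgaa
Cdc6 (chr11:98908002-98908031, minus strand): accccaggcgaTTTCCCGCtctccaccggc
Cdt1 (chr8:122568036-122568064, plus strand): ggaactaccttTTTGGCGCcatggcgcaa
Pole2 (chr12:69228162-69228191, plus strand): catgttcgcgaTTTGGCGCcaccgccgacg
Orc3 (chr4:34614965-34614994, minus strand): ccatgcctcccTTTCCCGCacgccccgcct
Pold3 (chr7:100121467-100121496, minus strand): gagcgaagctgTTTCCCGCcggcgggagct

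The 15 promoters held 21 matches, 9 on the strand of the gene and 12 on the opposite strand. Of these, 14 had their centre within 100 bases of the gene's start, and in Mcm5 and Mcm6 a match on each strand overlapped by 4 bases. Mcm6 held 3 matches, more than any other of the genes, and its 250 bases before the start show a pair on opposite strands that shares 4 bases, followed by a single one nearer the start. Orc1 held 1 match, in reverse just before its start. The same stretch is shown for Rrm2, in which none of the 4 words was found although Rrm2 stood further above Day0 at 3w+Dox than any other of the genes.
Mcm6 (chr1:128359706-128359955, minus strand): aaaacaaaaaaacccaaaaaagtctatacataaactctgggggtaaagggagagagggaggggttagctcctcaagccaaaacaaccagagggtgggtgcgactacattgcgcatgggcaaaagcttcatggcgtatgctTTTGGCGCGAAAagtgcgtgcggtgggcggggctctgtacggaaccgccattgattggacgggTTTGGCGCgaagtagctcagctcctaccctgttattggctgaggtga
Orc1 (chr4:108579204-108579453, plus strand): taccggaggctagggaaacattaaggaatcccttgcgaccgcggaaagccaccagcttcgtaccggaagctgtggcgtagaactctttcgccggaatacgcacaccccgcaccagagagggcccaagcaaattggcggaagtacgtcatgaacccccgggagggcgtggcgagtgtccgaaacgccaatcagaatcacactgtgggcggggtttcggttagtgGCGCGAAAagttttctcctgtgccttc
Rrm2 (chr12:24708004-24708253, plus strand): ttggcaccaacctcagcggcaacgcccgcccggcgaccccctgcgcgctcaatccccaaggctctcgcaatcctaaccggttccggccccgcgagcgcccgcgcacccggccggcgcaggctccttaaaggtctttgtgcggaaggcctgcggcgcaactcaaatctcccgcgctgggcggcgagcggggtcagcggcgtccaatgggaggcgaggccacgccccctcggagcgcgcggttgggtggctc

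**Figure D1:**
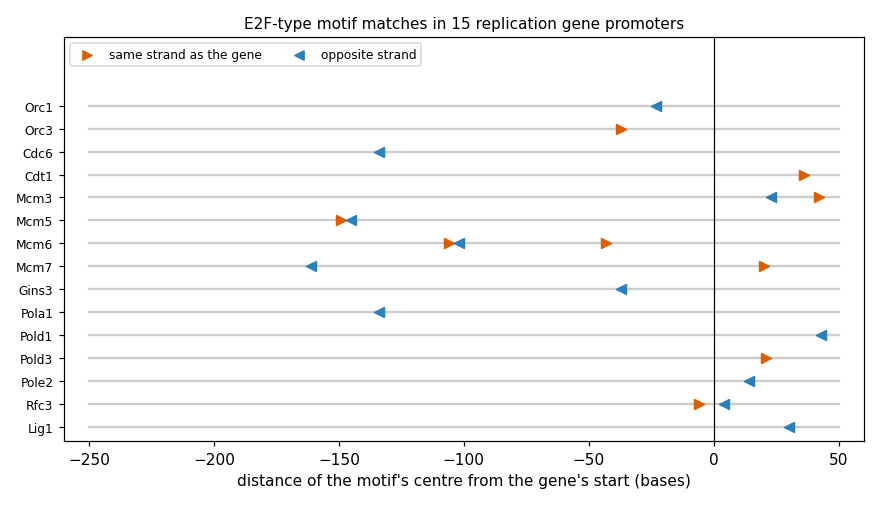
Positions of the E2F-type matches in the 15 promoters that hold one, as the distance in bases of the match's centre from the gene's start (vertical line), with grey lines for the 300 bases searched. Orange triangles pointing right are matches on the gene's strand and blue triangles pointing left are on the opposite strand. Of the 21 matches, 12 lie before the start and 9 after it, and Mcm6 shows 3.

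The comparison of iPS cells with Day0 asks how the reprogrammed cells differ from the cells they were made from. Replication genes were higher in iPS cells throughout the set. All 45 had a brighter signal in iPS cells than at Day0, 41 counted as higher at 2-fold and 29 at 4-fold, and 0 counted as lower at either. The other four were Orc3, Orc4, Gmnn and Pold3. Among the named genes as a whole, 13.1% were higher and 12.4% lower at 2-fold, and 4.89% higher and 5.9% lower at 4-fold. The median difference of the 45 genes was 2.47, with a range from 0.76 to 4.86, beside a median of 0.00 over all named genes. Pluripotency markers were bright on the same array (a median of 10.28 in iPS cells and 5.14 at Day0), and their part in the difference was not tested.

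The iPS array was also the brightest of the 4 for each of the 45 genes. For 41 of them it lay at least 2-fold above each of the other 3 arrays, and for 26 at least 4-fold. Over all named genes, 7.86% lay at least 2-fold above each other array in iPS cells with a signal at or above 6.67. Across the other 3 arrays the median range per gene was 0.39, beside 0.47 over all named genes, and 40 of the 45 genes (88.9%) stayed within 2-fold, beside 78.2% of all named genes. The dimmest array was Day0 for 21 genes, 3w+Dox for 3 and withdrawn cells for 21, and in 34 genes its gap to the next was under 0.3, which is taken here as a tie.

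**Figure D2:**
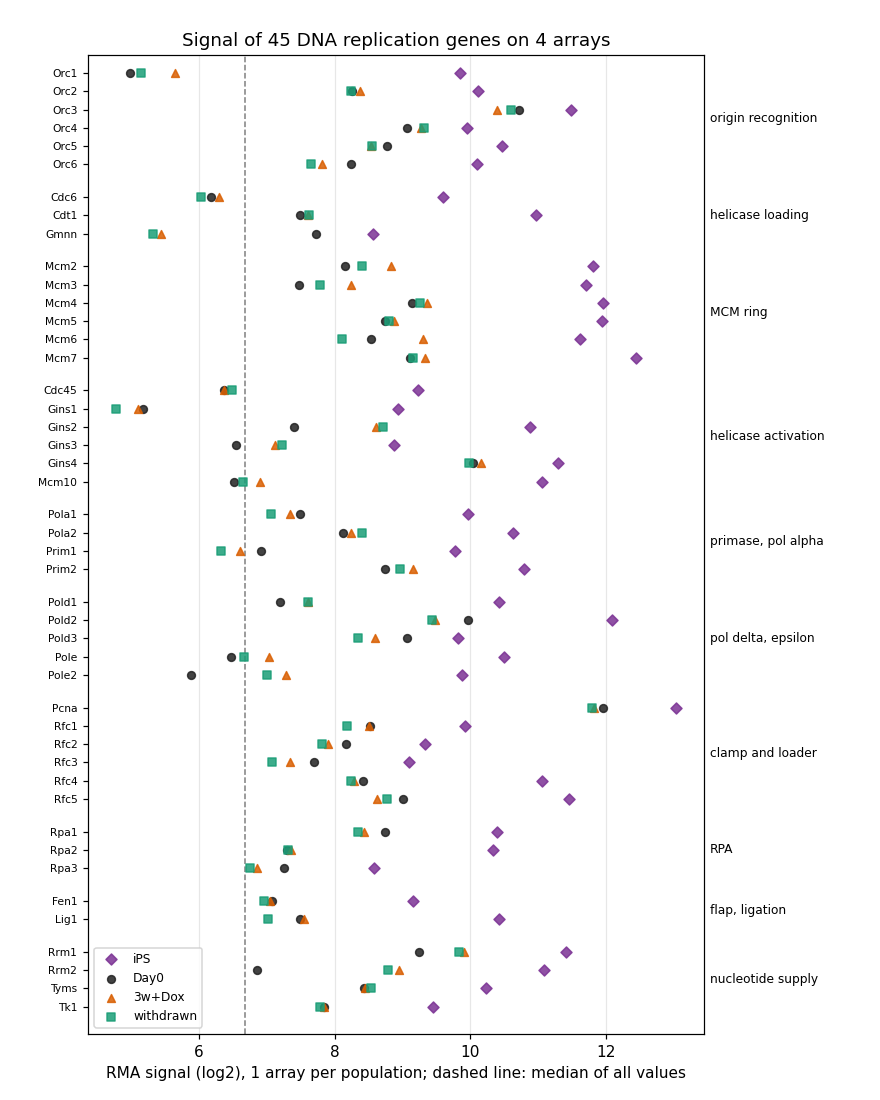
RMA signal (log2) of the 45 replication genes, 1 row per gene grouped by role, on the iPS (purple diamonds), Day0 (black circles), 3w+Dox (orange triangles) and withdrawn (green squares) arrays, 1 array each, so there are no error bars. The dashed line marks 6.67, the median of all values. The purple diamond is the rightmost point in all 45 rows, and in 40 rows the other 3 points lie within 1 log2 unit.

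The origin recognition complex, which marks the sites where replication can begin, was uneven in iPS cells. Orc1, the subunit whose level follows the cell cycle in mammalian cells, read 9.85 in iPS cells, 4.98 at Day0, 5.64 at 3w+Dox and 5.15 in withdrawn cells. Its difference of 4.86 between iPS cells and Day0 (29.1-fold) was the largest of the 45 genes, and its signal was dim on the other 3 arrays. Orc2, Orc5 and Orc6 differed by 1.86, 1.701 and 1.86. Orc3 read 11.48 in iPS cells, 10.71 at Day0, 10.40 at 3w+Dox and 10.60 in withdrawn cells, and Orc4 read 9.94, 9.06, 9.27 and 9.32 in the same order. Their differences of 0.77 and 0.88 from Day0 stayed under 2-fold, so 4 of the 6 subunits were counted as higher.

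The loading factors stood further apart. Cdc6, the ATPase that joins the origin recognition complex to load the helicase, read 9.60 in iPS cells, 6.18 at Day0, 6.30 at 3w+Dox and 6.03 in withdrawn cells, a difference of 3.42 from Day0. Cdt1, which brings the MCM ring to the origin, read 10.96, 7.49, 7.61 and 7.62 on those arrays, a difference of 3.48 (11.1-fold). Both stood apart in iPS cells, with the other 3 arrays within 0.3 of each other. Gmnn, which encodes geminin, the inhibitor that binds Cdt1 after origins have fired, followed another order: it read 8.57 in iPS cells, 7.73 at Day0, 5.44 at 3w+Dox and 5.32 in withdrawn cells. Its difference between iPS cells and Day0 was 0.84, under 2-fold.

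All 6 genes of the MCM ring, the motor of the replicative helicase, were at least 4-fold higher in iPS cells, with a median difference of 3.27. Mcm3 read 11.70 in iPS cells, 7.47 at Day0, 8.24 at 3w+Dox and 7.78 in withdrawn cells, the widest gap of the ring at 4.23 (18.7-fold). Mcm4 read 11.95, 9.14, 9.35 and 9.26 on those arrays, the narrowest at 2.81 (7.02-fold). Mcm2, Mcm5, Mcm6 and Mcm7 lay between them at 3.66, 3.20, 3.08 and 3.34.

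The genes that turn the loaded ring into an active helicase were higher in 6 of 6 cases. Mcm10, which is needed to open the origin DNA, read 11.06 in iPS cells, 6.51 at Day0, 6.89 at 3w+Dox and 6.65 in withdrawn cells. Its 4.54 (23.3-fold) was the second largest difference of the 45. Cdc45, a partner of the ring at the fork, differed by 2.87. The GINS subunits, which complete the active helicase, differed by 3.77 for Gins1, 3.49 for Gins2, 2.32 for Gins3 and 1.25 for Gins4, and Gins4 was the subunit below 4-fold.

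Polymerase genes followed. Pola1 and Pola2, subunits of polymerase alpha, differed by 2.47 and 2.51, and Prim1 and Prim2, the primase subunits, by 2.87 and 2.04, so all 4 were at least 4-fold higher. Pole, the catalytic subunit of polymerase epsilon that copies the leading strand, read 10.50 in iPS cells, 6.47 at Day0, 7.03 at 3w+Dox and 6.67 in withdrawn cells, a difference of 4.02 (16.2-fold). Pole2, its second subunit, read 9.87, 5.88, 7.28 and 6.995 on those arrays, a difference of 3.996. Of the polymerase delta genes, Pold1, the catalytic subunit, differed by 3.22 and Pold2 by 2.13, while Pold3 read 9.82, 9.06, 8.59 and 8.34 and differed by 0.76, the smallest difference of the 45.

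The sliding clamp and its loader showed smaller differences, with a median of 1.39 over 6 genes. Pcna, which encodes the clamp that holds polymerases on DNA, read 13.03 in iPS cells, 11.95 at Day0, 11.82 at 3w+Dox and 11.79 in withdrawn cells. The iPS signal of Pcna is near the highest value of the table (13.85), where signals can be compressed, and the part of this in its difference of 1.08 (2.11-fold) was not tested. Among the subunits of replication factor C, which opens the clamp and sets it on DNA, Rfc4 and Rfc5 differed by 2.64 and 2.44. Rfc1, Rfc2 and Rfc3 differed by 1.39, 1.16 and 1.39, and all 6 clamp and loader genes were counted at 2-fold but 2 at 4-fold.

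Replication protein A, which coats single-stranded DNA, differed by 3.03 for Rpa2, 1.64 for Rpa1 and 1.33 for Rpa3. Fen1, the nuclease that trims flaps on the lagging strand, and Lig1, the ligase that seals it, differed by 2.08 and 2.92. Of the enzymes of nucleotide supply, Rrm2, the small subunit of ribonucleotide reductase, differed by 4.22 (18.6-fold) and Rrm1, the large subunit, by 2.16. Tyms, which makes thymidylate, and Tk1, the thymidine kinase of dividing cells, differed by 1.80 and 1.61. Subunits of some complexes thus differed by unequal amounts in iPS cells, from 0.77 to 4.86 for origin recognition and 0.76 to 3.22 for polymerase delta. The value of 4.86, that of Orc1, rests on a dim Day0 signal of 4.98 and is not exact. The polymerase epsilon genes Pole and Pole2 differed by similar amounts, 4.02 and 3.996.

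The comparison of iPS cells with 3w+Dox cells gave 44 genes higher in iPS cells at 2-fold, 28 at 4-fold, and 0 lower at either. Among the named genes as a whole, 11.4% were higher and 12.4% lower at 2-fold, and 3.57% higher and 5.16% lower at 4-fold. The median difference was 2.39, beside 0.06 over all named genes. The gene under 2-fold was Orc4 (0.67), and the next smallest differences were those of Orc3 (1.08) and Gins4 (1.13). The largest were those of Orc1 (4.21, 18.4-fold), Mcm10 (4.16) and Gins1 (3.84). The genes at 4-fold were those of the comparison with Day0, but with Orc6 (2.30) and Gmnn (3.13, 8.74-fold) and without Gins3 (1.74), Prim2 (1.63) and Rrm1 (1.4997). Fibroblast and leukocyte markers were lower on the iPS array (medians of 9.41 and 6.89) than on the 3w+Dox array (11.94 and 9.78), and their part in these differences was not tested.

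Against withdrawn cells, 43 genes counted as higher in iPS cells at 2-fold and 30 at 4-fold, with 0 lower at either and a median of 2.66. The background was 11.5% higher and 12.5% lower at 2-fold, 3.83% higher and 5.05% lower at 4-fold, and the median over all named genes was 0.02. Orc3 (0.88) and Orc4 (0.62) stayed under 2-fold, and Pcna was the next smallest at 1.24. Orc1 (4.70), Mcm10 (4.41) and Gins1 (4.16) were the largest. Rfc3 (2.02) and Rpa1 (2.04) joined the genes at 4-fold here. The 3 comparisons with iPS cells share the iPS array and are no independent repeats of each other.

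**Figure D3:**
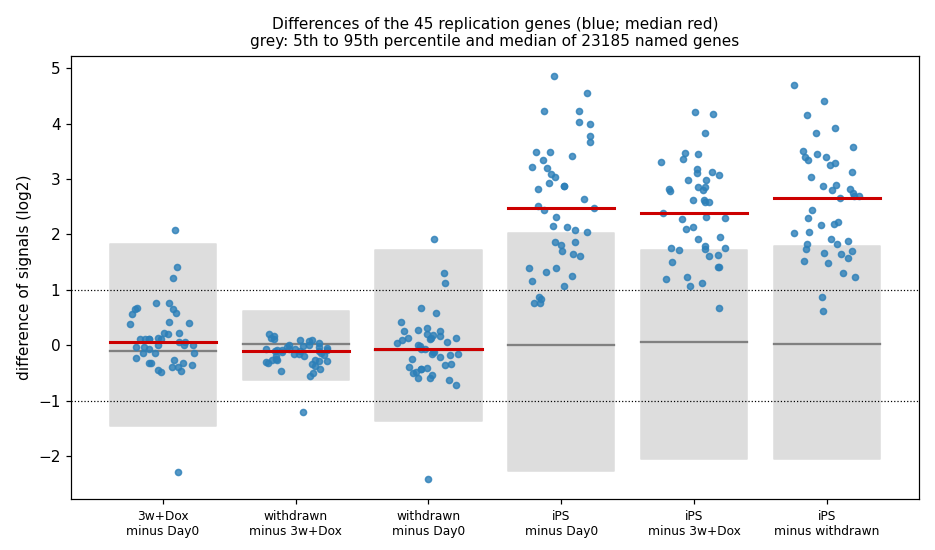
Difference of log2 signals for the 45 replication genes (blue points, median in red) in 6 comparisons, with the 5th to 95th percentile of 23185 named genes as a grey box and their median as a grey line. Dotted lines mark 2-fold. The red medians lie at 2.47, 2.39 and 2.66 in the 3 comparisons with iPS cells and between -0.10 and 0.06 in the other 3.

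The next question is how the population grown for 3 weeks on doxycycline compares with the cells as isolated. Between 3w+Dox and Day0 the replication genes lay close to their Day0 signals. Rrm2, Pole2 and Gins2 were at least 2-fold higher, Gmnn was lower, and the other 41 were within 2-fold of Day0. At 4-fold, 1 gene was higher and 1 lower. Among the named genes as a whole, 8.67% were higher and 7.52% lower at 2-fold, and 4.31% higher and 2.88% lower at 4-fold, so 3 of 45 higher (6.67%) is near the share among named genes. The median difference was 0.06, beside -0.09 over all named genes, and 34 of the 45 (75.6%) lay within 0.5 log2 units of Day0, against 62.2% of all named genes. In this comparison 41 of the 45 passed the filter on dim signals.

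Rrm2, which limits the production of deoxynucleotides in S phase, read 8.94 at 3w+Dox against 6.86 at Day0, a difference of 2.08 (4.23-fold). Its partner Rrm1 read 9.90 against 9.24, a difference of 0.66. Pole2 read 7.28 at 3w+Dox against 5.88 at Day0, a difference of 1.41 (2.65-fold), and Gins2 read 8.61 against 7.40, a difference of 1.21 (2.31-fold). The other subunits of the same complexes differed less, by 0.56 for Pole and by 0.58, 0.12 and -0.07 for Gins3, Gins4 and Gins1.

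Gmnn read 5.44 at 3w+Dox against 7.73 at Day0, a difference of -2.28 (4.87-fold lower). It was the gene counted as lower, and the next lowest, Pold2 (-0.48), Pold3 (-0.46) and Orc6 (-0.44), lay within 2-fold of Day0. Cdt1, the target of geminin, read 7.61 against 7.49. Ciliated cell markers lay at or above 6.67 for 2 of 10 genes at 3w+Dox against 10 of 10 at Day0, with medians of 6.09 and 10.19, and their part in the Gmnn difference was not tested.

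Below 2-fold, the genes of some roles lay on one side of Day0, and these roles were named after their values were seen. All 6 genes of the MCM ring lay above Day0, by 0.13 (Mcm5) to 0.77 (Mcm3 and Mcm6), with a median of 0.46. All 6 clamp and loader genes lay below it, by -0.02 (Rfc1) to -0.39 (Rfc5), with a median of -0.20. Both directions were the same after a second quantile normalization and after centring of the arrays. Over all named genes, 41.7% lay above Day0, with a median of -0.09. Mcm4, Mcm5, Mcm7, Pcna, Rfc1, Rfc2 and Rfc4 lay within the 0.3 taken as a tie. None of these 12 genes was counted, and differences of this size have no replicate check. Fibroblast and leukocyte markers were higher on the same array (medians of 11.94 and 9.78 at 3w+Dox, 5.98 and 6.45 at Day0), and which cells carried a difference in a replication gene was not tested.

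Genes of mitosis and of the wider cell cycle were set beside them. The 7 measured genes of a proliferation list outside replication (Mki67, Top2a, Cdk1, Aurkb, Bub1, Plk1 and Ccna2) all lay above Day0 at 3w+Dox, by 0.55 (Aurkb) to 1.34 (Ccna2). At 2-fold 4 of 7 were counted as higher, beside 8.67% of all named genes. Their median was 1.11 beside 0.06 for the 45 replication genes. In iPS cells the 7 genes differed from Day0 by a median of 4.15, with 7 of 7 counted as higher at 4-fold, beside 4.89% of all named genes. The 7 and the 45 genes were picked with earlier results known, and the difference between the lists was not tested. Ccna2 is also in the list of other pathway genes described below, so its values stand in both.

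Withdrawn cells were then set against 3w+Dox cells. The withdrawn cells also had 2 further weeks in culture, so effects of this time and of removing the drug cannot be told apart. Of the 45 replication genes, 0 were at least 2-fold higher and 1, Mcm6, at least 2-fold lower, and 0 reached 4-fold in either direction. The background was 1.45% higher and 1.88% lower at 2-fold, and 0.302% higher and 0.47% lower at 4-fold. The median difference was -0.10, beside 0.03 over all named genes, and 39 of the 45 passed the filter. Of the 45 differences, 10 lay above 0 (22.2%), against 53.7% over all named genes, and under the 2 other scalings 13 and 14 did (28.9% and 31.1%, against 52.2% and 60.7%). In the same comparison ciliated cell markers reached 6.67 for 10 of 10 genes in withdrawn cells and 2 of 10 at 3w+Dox (medians of 8.71 and 6.09), and club cell markers for 10 and 7 of 10. The part of these markers in the differences was not tested.

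Mcm6 read 8.11 in withdrawn cells against 9.30 at 3w+Dox, a difference of -1.19 (2.29-fold lower), which left it 0.43 below its Day0 signal of 8.53. The other 5 genes of the ring were not counted. Their differences were -0.46 for Mcm3, -0.42 for Mcm2, -0.19 for Mcm7, -0.09 for Mcm4 and -0.07 for Mcm5, of which the last 3 lie within the 0.3 taken as a tie. Lig1 (-0.54) and Orc1 (-0.49) were the next lowest, and Orc3 (0.20), Pola2 (0.17) and Rfc5 (0.14) the highest of the 45.

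Rrm2, Pole2 and Gins2 read 8.78, 6.995 and 8.71 in withdrawn cells, within 0.3 of their 3w+Dox signals. Set against Day0, the same 3 genes counted as higher in withdrawn cells, by 1.92 (3.79-fold), 1.12 (2.17-fold) and 1.31 (2.49-fold). Gmnn was the gene counted as lower, by -2.41 (5.30-fold lower). At 4-fold, 0 were higher and 1 lower. The background in that comparison was 7.85% higher and 7.76% lower at 2-fold, and 4.05% and 1.85% at 4-fold, and the median of the 45 was -0.06 beside -0.08 over all named genes. Pold3 (-0.72) and Rfc3 (-0.63) followed Gmnn at the low end, and 39 of 45 passed the filter. The comparisons of 3w+Dox and of withdrawn cells with Day0 share the Day0 array and are no independent repeats of each other. Ciliated cell markers were at or above 6.67 for 10 of 10 genes in withdrawn cells, with a median of 8.71 against 10.19 at Day0. Gmnn read 5.32 in withdrawn cells, below 6.67, and the part of these markers in its difference was not tested.

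**Figure D4:**
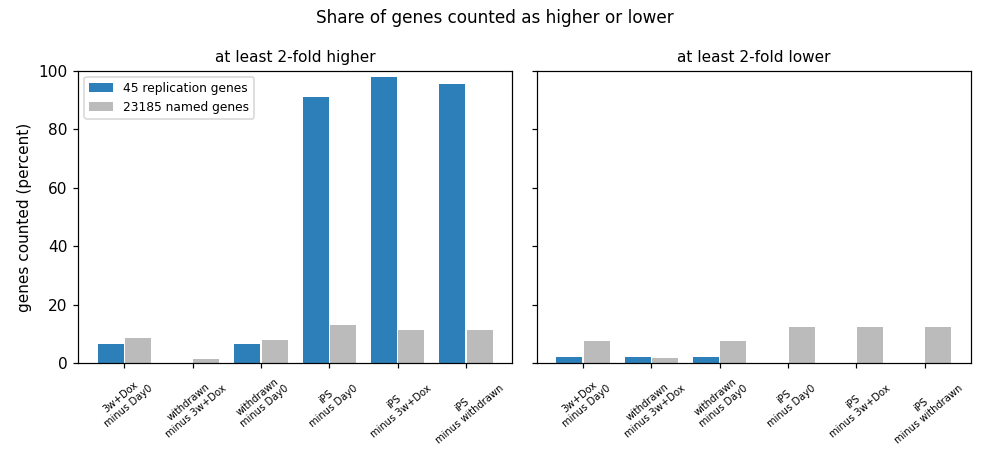
Percent of the 45 replication genes (blue) and of 23185 named genes (grey) counted as at least 2-fold higher (left) or lower (right) in 6 comparisons, with bars starting at 0. In the comparisons with iPS cells 41, 44 and 43 of the 45 genes are counted as higher, against 13.1%, 11.4% and 11.5% of all named genes, and in the other 3 comparisons 3, 0 and 3.

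How far each culture lay between Day0 and iPS cells was expressed as a percent of the log2 distance, with Day0 at 0 and iPS at 100, for the 41 genes counted as higher in iPS cells than at Day0. The median position was 3.57% at 3w+Dox and -1.01% in withdrawn cells. For the 3038 named genes counted as higher in iPS cells, the medians were 17.1% and 13.5%. Positions of 25% or more were held by 4 of the 41 genes at 3w+Dox and by 5 in withdrawn cells, against 42.5% and 40.1% of the 3038 genes. All these positions rest on the same Day0 and iPS arrays and have no error.

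The genes furthest along were Rrm2, at 49.3% at 3w+Dox and 45.6% in withdrawn cells, Pole2 at 35.2% and 28.0%, Gins2 at 34.7% and 37.7%, and Rrm1 at 30.6% and 26.8%. Gins3 lay at 24.96% and 29.4%, just under and just above the line of 25%. At the other end, Rpa3 lay at -29.6% and -37.2% and Rfc3 at -25.5% and -45.0%, below Day0 on both arrays. Of the 41 positions, 16 were below 0 at 3w+Dox and 21 in withdrawn cells.

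**Figure D5:**
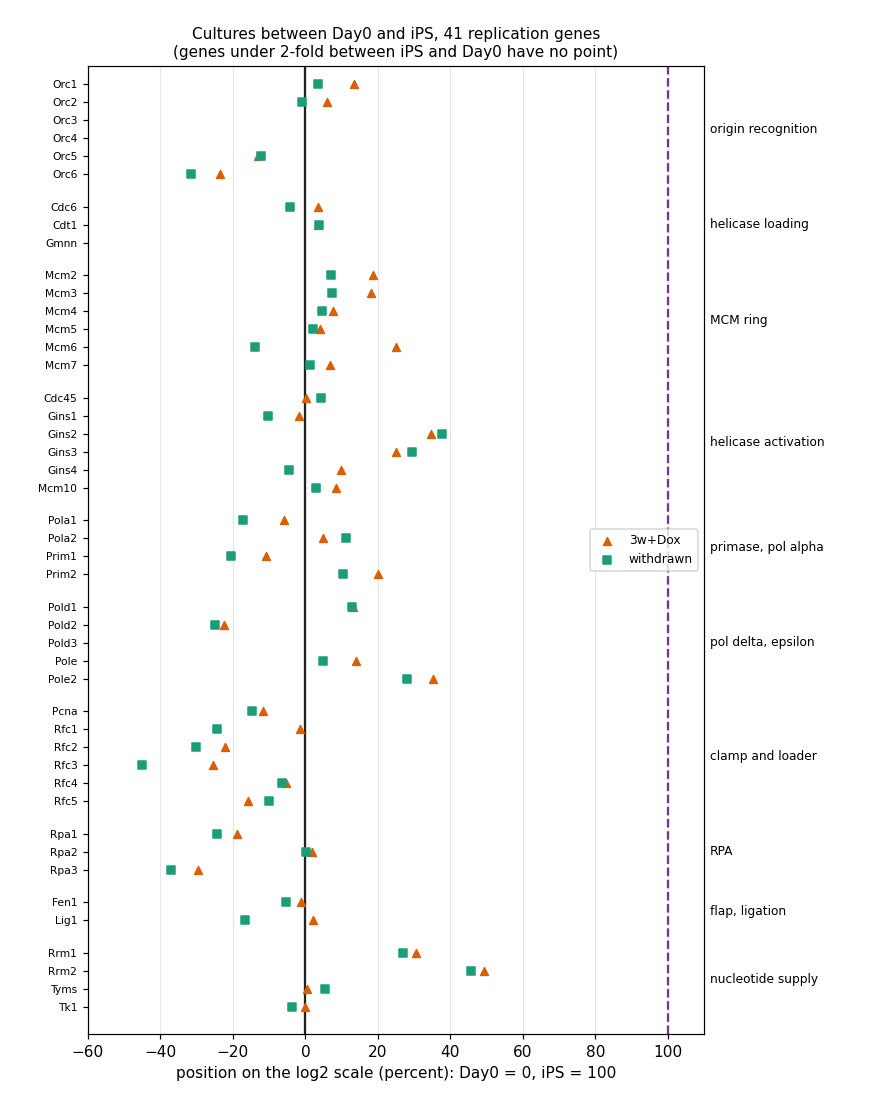
Position of the 3w+Dox (orange triangles) and withdrawn (green squares) arrays on the log2 scale from Day0 (0, black line) to iPS (100, dashed purple line), in percent, for the 41 replication genes at least 2-fold higher in iPS cells than at Day0. Most points lie between -45.0 and 25 and none reaches 50, with Rrm2 the furthest right at 49.3.

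The 15 genes with an E2F-type match were set beside the 22 genes whose promoter window held none. Between iPS cells and Day0 the medians were 3.20 with a match and 2.11 without, and 13 of 15 and 21 of 22 genes were counted as higher. Orc3 and Pold3 had a match and were not counted, and Mcm10 (4.54) and Rrm2 (4.22) had none and were among the largest. Over all genes on the arrays with a promoter, 152 of 569 with a match (26.7%) and 2175 of 16883 without (12.9%) were counted as higher in iPS cells, with medians of 0.30 and -0.01. At 3w+Dox the shares counted as higher than Day0 were 7.21% with a match and 8.51% without. These are counts of letters beside differences, and no test was made.

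Beyond the 45, other genes of the pathway were described from a list with 66 measured members. In iPS cells 45 of 66 were at least 2-fold higher than at Day0 and 2 lower, with a median of 2.17, beside 13.1% and 12.4% of all named genes. Ticrr, which encodes treslin, a factor for origin firing, differed by 5.29 against a dim Day0 signal of 5.32, and Ccne1, which encodes cyclin E1, by 4.90 against one of 6.39, so both sizes are not exact. Counted as lower were Rbl2, which encodes the RB relative p130 that holds E2F genes off in resting cells, by -2.07, and Rrm2b, the p53-inducible small subunit of ribonucleotide reductase, by -1.15. E2f1, an activating E2F factor, read 10.65 in iPS cells, 7.46 at Day0, 9.06 at 3w+Dox and 9.55 in withdrawn cells.

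The share of genes next to the 45 that were 2-fold higher in iPS cells than at Day0 varied by role, beside 13.1% of all named genes. Origin firing genes were higher in 7 of 8 cases and fork protection and clamp accessory genes in 6 of 8. The counts were 3 of 3 for degradation of licensing factors, 6 of 7 for chromatin assembly and 3 of 4 for primer and flap removal. They were 2 of 3 for MCM relatives, 5 of 8 for nucleotide supply and 10 of 16 for the E2F, RB and S phase cyclin group. Accessory polymerase subunits (Pold4, Pole3 and Pole4) were higher in 0 of 3, with differences from -0.71 to 0.31, and translesion polymerase genes in 3 of 6. Against 3w+Dox, 45 of 66 were higher in iPS cells and 2 lower, beside 11.4% and 12.4% of all named genes. Against withdrawn cells 46 were higher and 2 lower, beside 11.5% and 12.5%. The lower ones were Rbl2 (-1.56 and -1.28) and Pold4 (-1.24 and -1.16) both times. Ticrr had computed differences of 4.05 and 4.44, but its signals of 6.56 at 3w+Dox and 6.17 in withdrawn cells lay below 6.67, so these sizes and their rank are not exact. Dna2, a flap nuclease, differed by 3.82 from a 3w+Dox signal also below 6.67 (6.40), and Uhrf1, a partner of maintenance DNA methylation, from withdrawn cells by 3.98.

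Of the 66 genes, 6 counted as higher and 3 as lower in 3w+Dox cells than at Day0, with a median of 0.12, beside 8.67% and 7.52% over all named genes. Pclaf, which encodes a PCNA-binding protein, differed by 2.22, Ccne1 by 1.86 and E2f1 by 1.61. The other three were E2f3 (1.39), E2f8 (1.36) and Ccna2 (1.34), named after their values were seen. Shmt1, a folate enzyme that feeds thymidylate synthesis (-1.70), E2f2 (-1.49) and E2f5 (-1.06) were lower. Of the 16 genes of the E2F, RB and S phase cyclin group, 5 counted as higher and 2 as lower in this comparison, beside 3 and 1 of the 45 replication genes. Between withdrawn and 3w+Dox cells 0 of 66 were counted in either direction, near the 1.45% higher and 1.88% lower of all named genes. The differences ran from -0.73 (Atad5, an unloader of PCNA) and -0.62 (Nasp, a histone chaperone) to 0.46 (E2f8) and 0.49 (E2f1). Atad5 lay below 6.67 on both arrays. In withdrawn cells 6 of 66 (9.09%) counted as above Day0 and 2 as below it, near the 7.85% and 7.76% of all named genes. The computed differences had E2f1 (2.09) and Ccne1 (1.83) at the top and Shmt1 (-1.81) and E2f2 (-1.58) at the bottom.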

How the data were processed

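The authors deposited 1 table of log2 signals, made with RMA (background correction, quantile normalization over arrays, median polish per probe set). Per the submitters' processing notes the tools were RMA, affy and R 3.0.2. The values (1.70 to 13.85, 0 missing) gave the log2 scale. Which annotation version and genome build lie behind the probe sets is not given in the sources used here. Of 25206 probe sets, 23185 carry 1 gene symbol through the platform annotation, and the other 2021, with none or more than 1, were left out. All 45 members matched RefSeq by Entrez gene ID. Groups come from sample titles, with 1 array each, so 6 pairwise differences were computed without a test. Members, gene lists, motif words and thresholds were chosen with earlier results of these data known. The text names all 45 members; of the other pathway genes the rule names the pair with the largest and the pair with the smallest differences in a comparison, those counted against the median, and E2f1. Any further one (E2f3, Ccna2, Pole3, Pole4, Tk2, Samhd1, Dctpp1, Dck, Dut) was named after its values were seen. Computation used Python 3.11.15, numpy 2.4.6 and pandas 2.3.3, and the call rule was tested on simulated data. Alternatives were other thresholds, filters and scalings. Array medians were 6.65 (iPS), 6.60 (Day0), 6.67 (3w+Dox) and 6.74 (withdrawn). Promoters are RefSeq's, with 8 members (Mcm4, Gins1, Gins2, Gins4, Gmnn, Rfc2, Prim2, Pole) unmatched.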

Additional observations from a re-analysis of the deposited data

How the results depend on the processing

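All 810 recomputed differences of single replication genes (45 genes, 6 comparisons, 3 scalings or floors) moved by less than 0.3 log2 units, and 0 of those counted at 2-fold changed sign. The medians of the 45 genes ranged over the alternatives from 2.47 to 2.52 for iPS cells against Day0, from 0.02 to 0.12 for 3w+Dox against Day0 and from -0.16 to -0.05 for withdrawn against 3w+Dox cells. The iPS array stayed brightest for 45 genes under each scaling. The median position, recomputed with alternatives chosen after seeing the data, ran from 2.24% to 3.57% at 3w+Dox and from -1.70% to 0.18% in withdrawn cells. Counts moved with the threshold and the filter. At 4-fold, 28 genes were higher in iPS than in 3w+Dox cells, and 1 was higher in 3w+Dox cells than at Day0. In withdrawn cells 0 were then higher than at Day0 and 0 lower than at 3w+Dox. At 1.5-fold, 7 genes stood above Day0 in 3w+Dox cells and 5 below Day0 in withdrawn cells. With the brighter array required to reach the 75th percentile (8.82), 1 gene stood above Day0 and 0 below it in 3w+Dox cells, and in withdrawn cells 0 above and 0 below. For the counts at 1.5-fold and with this filter, the share over all named genes was not computed, so they have no background here. No paired analysis was possible because each population has 1 array. Signals near background, as for Orc1 and Gins1 outside iPS cells, limit the exactness of folds.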

Other observations

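Enzymes of nucleotide supply next to the 45 genes differed in both directions on the iPS array. Rrm2b, a small subunit of ribonucleotide reductase that serves repair and mitochondrial DNA, read 7.76 in iPS cells and 8.91 at Day0, while Rrm2 read 11.08 and 6.86. Tk2, the mitochondrial thymidine kinase, read 8.86 in iPS cells and 9.25 at Day0, while Tk1 read 9.45 and 7.84. Samhd1, which breaks down deoxynucleotides, read 9.67 in iPS cells and 9.92 at Day0. Dctpp1, another enzyme that hydrolyses deoxynucleotides, stood higher in iPS cells, at 11.86 against 8.69 at Day0. Dut, which removes dUTP, read 10.67 in iPS cells against 8.28 at Day0, and Dck, the deoxycytidine kinase, 9.23 against 7.001. With 1 array per population none of these differences was tested.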
